A study of Mus musculus with 15 samples.

Results

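The guanylate-binding and immunity-related GTPases examined here are 10 genes, Gbp2, Gbp3, Gbp4, Gbp5, Gbp6, Gbp7, Gbp8, Gbp9, Igtp and Irgm1, read by gene name from a table of 52526 genes, and all 10 were found. They were selected because Gbp4 was known to be lower with BDE-47 in these same mice, so the levels of Gbp4 are given as a description and only its 9 relatives were tested. The samples were the left 4th mammary tissue of female nu/nu nude mice (Crl:NU-Foxn1nu), an outbred line without a working thymus that makes few mature T cells. Pumps were placed at 8 weeks of age. Under the skin of each mouse an osmotic mini-pump delivered either vehicle alone, PEG300 with 1% DMSO (8 mice), or BDE-47 in the same vehicle (7 mice, aimed at 0.03 mg/kg/day), for 16 weeks. BDE-47 is a polybrominated diphenyl ether, a flame retardant that accumulates in fat. Each mouse gave 1 library. Some animals in the study carried a xenograft for another experiment, and which mice did so is not in the sample labels used here.

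Guanylate-binding proteins (GBPs) and immunity-related GTPases (IRGs) are GTP-hydrolysing proteins that cells make in large amounts when interferon, above all interferon gamma, binds its receptor. The signal passes through JAK kinases to transcription factors, IRF1 among them, that bind gamma activated sites or interferon-stimulated response elements in the promoters of these genes. GBPs coat bacteria and the vacuoles of parasites and help to start inflammasome signalling, while IRGs disrupt such vacuoles. Igtp and Irgm1 belong to the regulatory IRGM subgroup, which guards the membranes of the cell itself. In the mouse most of these genes lie in clusters of near relatives.

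The promoters are shown first, because an interferon response element was found in every member whose promoter could be read. In the RefSeq set for GRCm38.p6, 6 members had a promoter (Gbp2, Gbp3, Gbp5, Gbp7, Igtp and Irgm1), and Gbp4, Gbp6, Gbp8 and Gbp9 were not searched. The 250 bases before each start site were searched on both strands for GAAANNGAAA, the core of the interferon-stimulated response element, which reads TTTCNNTTTC on the other strand. All 6 of those read had a match at one start site at least, against 978 of 32851 promoters in the whole set (2.98%). Among related GTPase genes outside the members, 11 had a promoter and 6 of these had a match. Ifi47, Irgq, Gm5431, 9930111J21Rik1 and 9930111J21Rik2 had no match. The second start site of Gbp3 had none. Irgm2, a relative outside the members, is shown with them because it lies beside Igtp and differed the other way. Capitals mark the core, and each window runs 5′ to 3′ on the strand of its gene.
Gbp2 (chr3:142620579-142620638, + strand): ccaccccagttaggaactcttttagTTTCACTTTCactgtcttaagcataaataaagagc
Gbp3 (chr3:142559974-142560039, + strand): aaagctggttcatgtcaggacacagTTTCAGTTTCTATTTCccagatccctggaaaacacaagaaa
Gbp5 (chr3:142496744-142496803, + strand): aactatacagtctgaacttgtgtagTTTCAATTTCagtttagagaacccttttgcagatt
Gbp7 (chr3:142530258-142530317, + strand): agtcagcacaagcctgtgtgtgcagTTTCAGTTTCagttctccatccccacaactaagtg
Irgm1 (chr11:48871421-48871475, - strand): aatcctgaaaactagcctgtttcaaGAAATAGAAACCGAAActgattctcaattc
Igtp (chr11:58199497-58199555, + strand): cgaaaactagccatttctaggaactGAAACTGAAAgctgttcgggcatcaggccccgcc
Irgm2 (chr11:58214888-58214947, + strand): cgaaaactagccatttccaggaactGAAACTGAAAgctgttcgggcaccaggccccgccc

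The cores of Gbp3, Gbp7, Igtp and Irgm2 were the same 10 letters, GAAACTGAAA read from either strand, which 68 of 32851 promoters (0.207%) held. Tgtp1 and Gm12250, also outside the members, held the same letters. Gbp2 had GAAAGTGAAA, at the same share of all promoters. The cores lay close to the start, at 34 bases before it in Igtp, 30 in Irgm1, 45 in Gbp3, 53 in Gbp7, 59 in Gbp2 and 64 in Irgm2, and farther off, at 165 bases, in Gbp5. Around the core the promoters of Igtp and Irgm2 shared 90 of 94 aligned bases. A gamma activated site core, TTCNNNGAA, which reads the same on both strands, was present in 3 of the 6 members (Gbp5, Gbp7 and Igtp) and in 7.02% of all promoters. These matches describe the letters and were not tested as binding sites.

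Total depth, recovered from the step between low values, was 10.06 to 19.58 M reads per mouse. The deposited values are log2 CPM, where CPM is the number of reads of a gene per M mapped reads, and genes under 1 CPM are listed at 0, so 0 stands for fewer than about 10.06 to 19.58 reads and not for a measured absence. Genes used by every cell were listed at 0 as well (Pgk1 in 12 and Tbp in 12 of 15 mice), hence levels are given as the lowest, median and highest value of a group with the number of mice above 0. Vehicle replicates 6 and 8 stood apart: they were the only mice with Cd79a, a component of the B cell receptor, above 0 (5.81 and 5.35 log2 CPM). The summed level of 9 B cell markers was 4198 and 41976 CPM in them and 18.8 to 547 CPM in the other 13 mice. Their 5 lymph node stroma markers summed to 817 and 1287 CPM against at most 19.8 CPM elsewhere, and their 4 adipocyte markers to 365 and 891 CPM against 3532 to 21994 CPM. The stroma sums came almost wholly from Glycam1 (9.44 and 10.06 log2 CPM) and Cxcl13 (6.91 and 7.76). In these 2 mice Ccl21a was at 0, and Ccl19 and Madcam1 did not pass 0.43 and 0.59. BDE-47 replicate 6 had 13.35 log2 CPM of Ckm, the muscle creatine kinase, where no other mouse passed 4.86. All 5 mammary epithelium and all 4 adipocyte markers were above 0 in every mouse. The members and the main counts are therefore also given without the 2 mice with Cd79a above 0, which leaves 6 vehicle and 7 BDE-47 mice. In whole tissue, fewer cells of a type and less RNA per cell cannot be told apart.

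Gbp4 (gene ID 17472, chr5:105115767-105139586 in GRCm38.p6) was above 0 in 7 of the 8 mice on vehicle and in 3 of the 7 dosed with BDE-47. Vehicle mice had a lowest, median and highest value of 0, 4.89 and 6.71 log2 CPM, and dosed mice of 0, 0 and 5.79. The groups overlapped, since vehicle replicate 7 was listed at 0 and BDE-47 replicates 1 and 3 reached 4.55 and 5.79. The difference of the mean log2 values, BDE-47 minus vehicle, was -2.68 with a limma standard error (SE) of 1.12, and -2.18 without the mice with Cd79a above 0 (SE 1.22). With each mouse left out in turn it ranged from -3.37, without BDE-47 replicate 3, to -2.34, without vehicle replicate 8. The mean CPM, in which a value listed at 0 weighs less, was 33.6 in vehicle mice and 11.5 in dosed mice, a log2 ratio of -1.54. The lowest value above 0, in BDE-47 replicate 5, corresponded to 31 reads and the highest to 1249 reads.

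**Figure D1:**
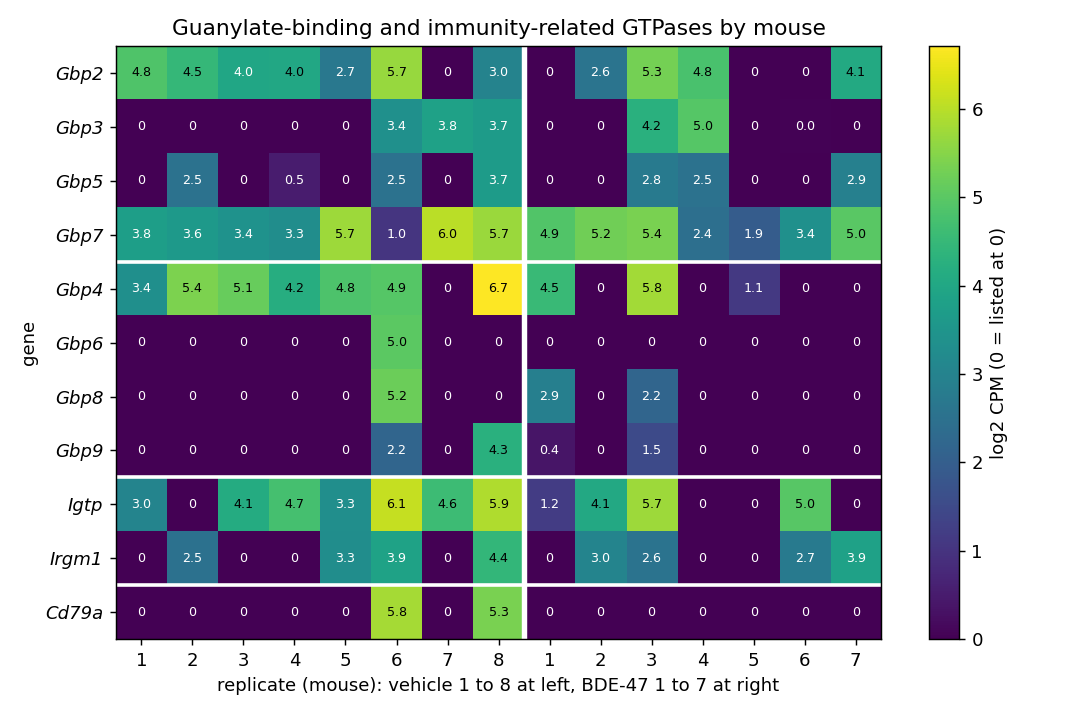
Level of each member and of Cd79a in every mouse as log2 CPM, with genes in rows (chromosome 3, chromosome 5 and chromosome 11 members in that order) and mice in columns, 8 vehicle mice at left and 7 BDE-47 mice at right. Vehicle replicate 6 is the only mouse with all 10 members above 0, and BDE-47 replicate 3 follows with 9.

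The nearest relatives of Gbp4, the members Gbp6, Gbp8 and Gbp9 on the same stretch of chromosome 5, were listed at 0 in most mice of both groups. Gbp6 (chr5:105270702-105295871) was above 0 in 1 of 15 mice, vehicle replicate 6, at 5.02 log2 CPM or 504 reads. Gbp8 (chr5:105012513-105053609) was at 5.20 log2 CPM in that mouse and at 2.90 and 2.20 in BDE-47 replicates 1 and 3. Gbp9 (chr5:105076464-105110357) was at 2.19 and 4.26 in vehicle replicates 6 and 8 and at 0.37 and 1.52 in BDE-47 replicates 1 and 3. All the vehicle values above 0 of these 3 genes thus came from the 2 mice with Cd79a above 0, and all the BDE-47 values from the 2 dosed mice with the highest Gbp4.

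The mean log2 difference, BDE-47 minus vehicle, was -0.63 for Gbp6, 0.08 for Gbp8 and -0.54 for Gbp9, with exact permutation p of 1, 1 and 0.518 (two-sided, over all 6435 choices of 7 of 15 mice). Without the mice with Cd79a above 0, Gbp6 was at 0 in every mouse, and the differences of Gbp8 and Gbp9 were 0.73 and 0.27 (exact permutation p = 0.462 for each, over 1716 choices). With so few mice above 0 the tests of Gbp6 and Gbp8 could not pass, since the smallest exact permutation p possible was 0.467 and 0.0769 (0.0256 for Gbp9). Without the 2 mice neither Gbp8 nor Gbp9 could go below 0.192. None of the 3 was above 0 in enough mice to enter the limma fit, which needed 1 CPM in at least 7 mice. Their values and that of Gbp4 also carry an uncertainty of assignment, because the libraries sample the 3′ ends of transcripts and these ends are alike. Of all 50-base words in the last 400 bases of the GENCODE transcripts, 20.2% of those of Gbp4 occurred in another gene as well, 56.6% of those of Gbp6, 13.7% of those of Gbp8 and 9.7% of those of Gbp9, the partners being mostly one another, Gbp10, Gbp11 and Gm43302. For Gbp2, Gbp7 and Igtp the share was 0%, for Gbp3 4.33%, shared with Gbp7, for Gbp5 1.03% and for Irgm1 5.13%. How reads with several matches were counted is not given in the sources used here.

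The chromosome 3 members did not share a direction. Gbp2 (chr3:142620663-142638008), which encodes a GBP that coats vacuoles and bacteria, was above 0 in 7 of the 8 vehicle animals and 4 of the 7 dosed animals. The lowest, median and highest values were 0, 4.00 and 5.67 log2 CPM in the former and 0, 2.58 and 5.31 in the latter, so the ranges overlapped almost completely. The difference was -1.19 (limma SE 1.09, adjusted p = 0.982; exact permutation p = 0.282), and -0.94 without the mice with Cd79a above 0 (exact permutation p = 0.445). It was -0.54 once BDE-47 replicate 6 was left out too.

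Gbp7 (chr3:142530336-142550151) was the only member above 0 in all 15 mice. Its range was 1.04 to 6.02 log2 CPM in vehicle mice (median 3.70) and 1.94 to 5.36 in dosed mice (median 4.90). The median was higher with BDE-47 while the mean was lower by 0.04 (limma SE 0.85, adjusted p = 1; exact permutation p = 0.963), and without the mice with Cd79a above 0 the difference was -0.27. Vehicle replicate 6, the mouse with the highest Gbp2, Gbp6, Gbp8 and Igtp, had the lowest Gbp7.

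Gbp3 (chr3:142560016-142573213) was above 0 in 3 mice of each group, at 3.37, 3.84 and 3.67 log2 CPM in vehicle replicates 6, 7 and 8 and at 4.25, 4.95 and 0.03 in BDE-47 replicates 3, 4 and 6. The difference was -0.04 with all mice and 0.68 without those with Cd79a above 0 (exact permutation p = 1 and 0.51). Gbp5 (chr3:142496934-142522344), whose product promotes NLRP3 inflammasome assembly, was above 0 in 4 vehicle and 3 BDE-47 mice and never passed 3.67 log2 CPM. Its difference was 0.02 (limma SE 0.78, adjusted p = 1; exact permutation p = 0.98) and 0.66 without the mice with Cd79a above 0 (exact permutation p = 0.478). The directions of Gbp3, Gbp5 and Gbp7 were not stable: leaving out a single mouse turned each of them, as did library scaling, and so did another pseudocount for Gbp3 and Gbp5.

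**Figure D2:**
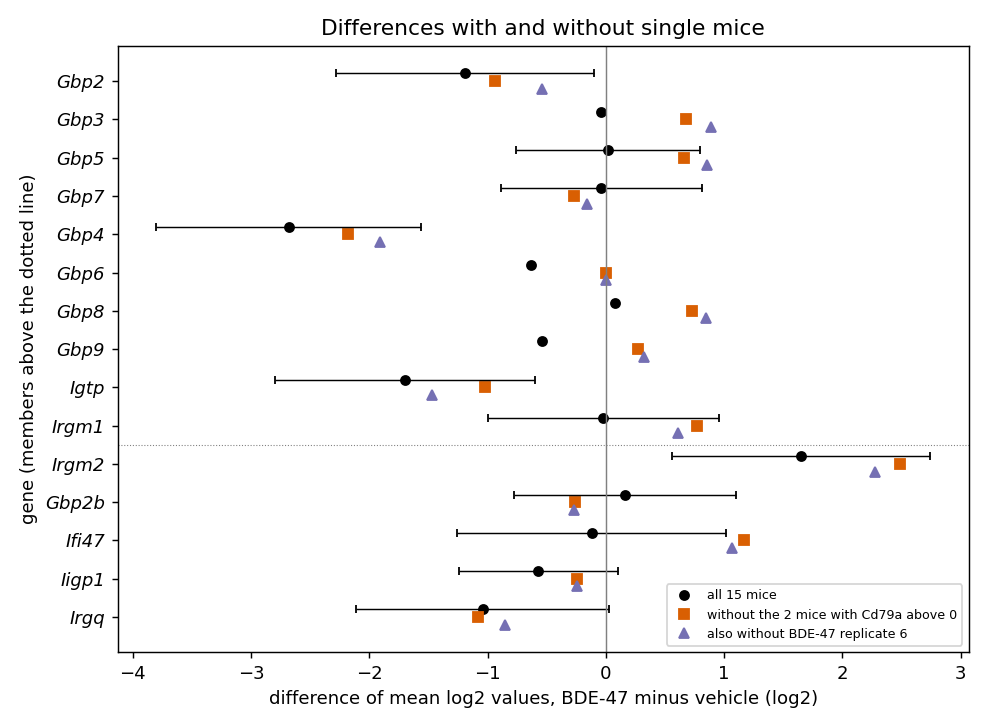
Difference of the mean log2 values, BDE-47 minus vehicle, for the 10 members and for 5 of their relatives, with all 15 mice (circles, bars ± 1 limma SE where the gene entered the fit), without the 2 mice with Cd79a above 0 (squares) and also without BDE-47 replicate 6 (triangles). Gbp4, Igtp, Gbp2, Gbp7, Iigp1 and Irgq lie left of 0 in all 3 sets of mice. Irgm2, Gbp5 and Gbp8 lie right of 0 in all 3, with Gbp5 at 0.02 and Gbp8 at 0.08 when all 15 mice are used.

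Among the IRGs, Igtp (also called Irgm3; gene ID 16145, chr11:58199556-58207592) was above 0 in 7 of the 8 vehicle animals and 4 of the 7 given BDE-47. Vehicle values had a lowest, median and highest of 0, 4.37 and 6.11 log2 CPM, and BDE-47 values of 0, 1.19 and 5.72. The 2 highest vehicle values, 6.11 and 5.92, were those of the mice with Cd79a above 0. The difference of -1.70 did not pass the test (limma SE 1.10, adjusted p = 0.982; exact permutation p = 0.165), and it was -1.02 without those mice (SE 1.21, exact permutation p = 0.404). As a ratio of mean CPM, 14.8 in dosed against 27.0 in vehicle mice, it was -0.87 on the log2 scale.

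Irgm1 (chr11:48865245-48871420), whose product is known to act on mitochondria and lysosomes, was above 0 in 4 mice of each group. Its highest level was 4.44 log2 CPM among vehicle mice and 3.85 among dosed mice, with medians of 1.25 and 2.56. The difference was -0.02 (limma SE 0.98, adjusted p = 1; exact permutation p = 0.978) and 0.77 without the mice with Cd79a above 0, in which exact permutation gave p = 0.429.

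Irgm2 (chr11:58214977-58222783), the third IRGM gene and the neighbour of Igtp, had its values the other way round. It was above 0 in 6 of 7 BDE-47 mice, where 6 values lay between 4.67 and 5.71 log2 CPM and replicate 7 was listed at 0. With vehicle it was above 0 in 6 of 8 mice, from 0.10 to 6.63, with a median of 2.58 against 4.98 with BDE-47. The difference was 1.65 (limma SE 1.09, adjusted p = 0.982; exact permutation p = 0.225) and 2.49 without the mice with Cd79a above 0 (SE 1.14, limma unadjusted p = 0.033, adjusted p = 0.99; exact permutation p = 0.0804). The ratio of mean CPM, 32.4 in dosed against 24.4 in vehicle mice, was 0.41 on the log2 scale. Irgm2 and Igtp, whose promoters shared 90 of 94 aligned bases around the core, had differences of opposite sign, and neither passed the test. Irgm2 was set beside Igtp after its values were seen, so nothing about their promoters is read from this contrast. In BDE-47 replicates 4 and 5 Igtp was listed at 0 while Irgm2 stood at 4.77 and 4.67 log2 CPM, and in vehicle replicate 7 Igtp was at 4.61 while Irgm2 was listed at 0.

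**Figure D3:**
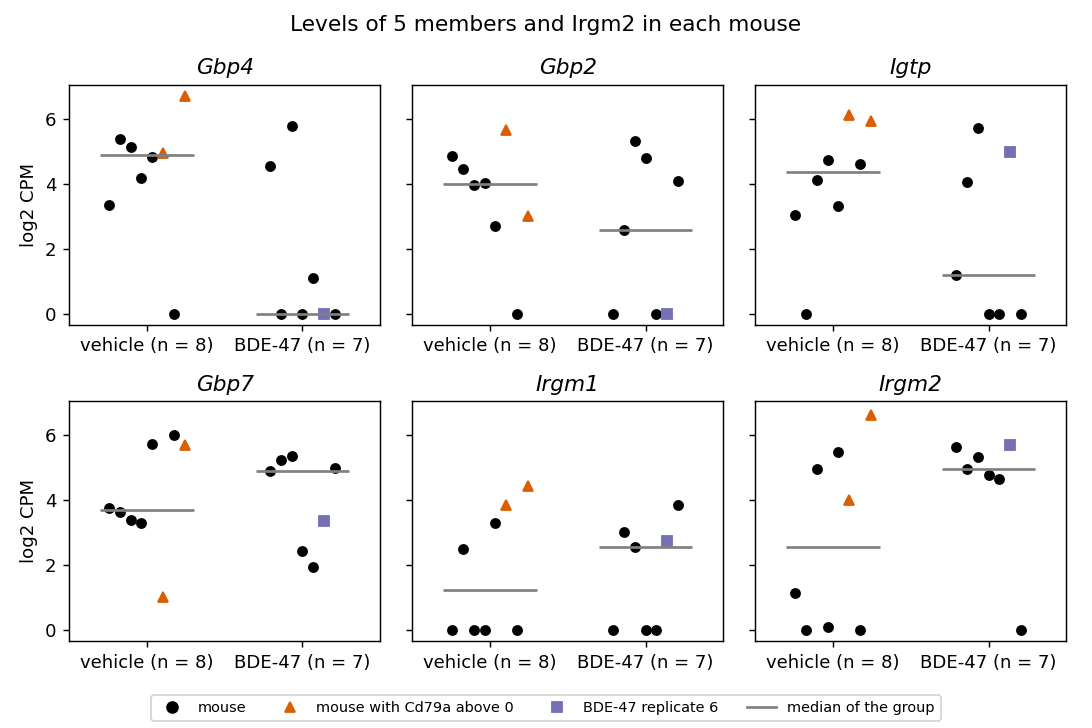
Level of Gbp4, Gbp2, Igtp, Gbp7, Irgm1 and Irgm2 in each mouse as log2 CPM for vehicle (n = 8) and BDE-47 (n = 7), with the group median as a line, the 2 mice with Cd79a above 0 as triangles and BDE-47 replicate 6 as a square. The Gbp4 median is 4.89 with vehicle and 0 with BDE-47, and the Irgm2 median is 2.58 and 4.98.

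Of the 9 relatives of Gbp4, 7 had a lower mean with BDE-47 and 2 a higher one, where 50.7% of the 16314 genes above 0 in any mouse were lower. Of the 7, Gbp3, Gbp7 and Irgm1 were lower by 0.04 or less. Gbp2 and Igtp were past 2-fold lower, against 10.5% of all genes, and no relative was past 2-fold higher, against 9.97%. The median difference was -0.04 over the relatives and -0.02 over all genes. With Gbp4, whose difference chose the list, the counts were 8 of 10 lower and 3 past 2-fold lower, and nothing is read from its place in them.

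Without the mice with Cd79a above 0, 8 relatives were above 0 in some mouse, and 3 of them had a lower mean with BDE-47 (Gbp2, Gbp7 and Igtp), against 49.6% of 15804 genes. The other 5 (Gbp3, Gbp5, Gbp8, Gbp9 and Irgm1) had a higher one, by 0.27 to 0.77. The median difference of the relatives was then 0.47, with 0.00 over all genes. Igtp, at -1.02, was past 2-fold lower (10.5% of all genes), and none was past 2-fold higher (10.4%). With Gbp4 included, leaving out vehicle replicate 6 alone brought the count of lower members from 8 to 5, as did leaving out BDE-47 replicate 5, in which only Gbp4 and Gbp7 were above 0.

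Of the 10 members, 6 passed the filter on low values (Gbp2, Gbp4, Gbp5, Gbp7, Igtp and Irgm1), and the other 4 were too often listed at 0. Of the 5 tested relatives of Gbp4, 0 had a limma adjusted p under 0.05 and 0 an unadjusted one. Over the table of 9511 genes, 0% had an adjusted p under 0.05, while 2.72% had an unadjusted p under 0.05 and were lower and 1.93% were higher. Without the mice with Cd79a above 0 the same shares were 0%, 2.86% and 1.65%, again with 0 of the 5 relatives. Of 9 exact permutation tests of relatives, the smallest p was 0.165, for Igtp.

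Many members were high together in single mice of either group. The number of members above 0 was 3 to 10 with vehicle (median 5) and 2 to 9 with BDE-47 (median 4). The summed level of the 10 members ran from 60.8 to 292 CPM with vehicle and from 5.98 to 228 CPM with BDE-47. Both measures include Gbp4, whose difference chose the list, so no contrast of the groups is read from them. The 3 highest sums were those of vehicle replicates 8 and 6 (292 and 257 CPM) and BDE-47 replicate 3 (228 CPM). In the remaining vehicle mice the sums were 60.8 to 108 CPM, which overlapped the 49.8 to 71.0 CPM of 5 other BDE-47 mice, and BDE-47 replicate 5 was lowest at 5.98 CPM. BDE-47 replicate 3 had 0 Cd79a, and it was the mouse with the fewest mid-range genes listed at 0 (2.3% of genes with a mean of 10 to 20 CPM, where the other mice had 6.48 to 44.5%). Of the 10 members, 4 had their highest value in vehicle replicate 6 and 4 in vehicle replicate 8. The part of the B cell and lymph node markers, and of the share of genes listed at 0, in these levels was not tested.

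Beyond the members, 16 further GBP and IRG genes were in the table and 12 were above 0 in at least 1 mouse. Of the 12, 7 were lower with BDE-47 and 5 higher (median difference -0.20), beside 50.7% of all genes lower (median -0.02). Of these 6 entered the limma fit, and 0 passed in either direction at an adjusted or unadjusted p under 0.05. Without the mice with Cd79a above 0, 7 of 11 were lower and 4 higher (median -0.26), beside 49.6% of all genes lower (median 0.00). By limma 1 of 6, Irgm2, was then higher at an unadjusted p under 0.05, beside 1.65% of the genes tested, with 0 after adjustment. Of 5 very large interferon-inducible GTPase genes, a separate family on the same list, Gm8995 alone was above 0. Iigp1, an effector IRG that loads onto parasite vacuoles, was above 0 in all mice, with a median of 6.94 log2 CPM in vehicle and 5.65 in dosed mice and ranges of 3.64 to 7.52 and 2.67 to 7.99. Its difference was -0.57 (limma SE 0.67, adjusted p = 0.99; exact permutation p = 0.515), and -0.24 without the mice with Cd79a above 0. Ifi47 (Irgd) was highest in vehicle replicates 8 and 6, at 6.89 and 5.53 log2 CPM, and its difference changed from -0.12 to 1.17 without them (exact permutation p = 0.932 and 0.207).

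Gbp2b, the gene once called Gbp1, differed by 0.16 and the pseudogene Gbp11 by -0.27, and by -0.26 and -0.79 without the mice with Cd79a above 0. Irgq differed by -1.04 (limma SE 1.07, adjusted p = 0.982), or -1.08 without those mice, and Gm8995 by -1.53 (SE 1.06, limma adjusted p = 0.982), the latter by -0.39 without them. Gm4951 and F830016B08Rik differed by 0.07 and 0.27, and by -0.49 and 0.54 without them. Tgtp1, Gm5431 and Gm12250 were above 0 in 1 mouse each and 9930111J21Rik2 in 2, vehicle replicates 2 and 6. Gbp10, Tgtp2, Irgc1, Gvin1, 9930111J21Rik1, Gm4070, Gm1966 and Gm8989 were listed at 0 in every mouse.

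The genes that act before and beside the members were taken from a list of 55 interferon pathway genes, of which 47 were above 0 in some mouse and 40 entered the limma fit. Of the 47, 39 were lower with BDE-47, where 50.7% of all genes were, and 18 were past 2-fold lower, where 10.5% were. The other 8 were higher, 1 of them past 2-fold, where 9.97% of all genes were. Their median difference was -0.71, beside -0.02 over all genes. At an unadjusted p under 0.05, 5 of 40 were lower and 0 higher, beside 2.72% and 1.93% of all genes, and 0 passed after adjustment (lowest adjusted p = 0.982 by limma). Without the mice with Cd79a above 0, 26 of 46 were lower, beside 49.6% of all genes, and the median was -0.12. By limma 1 gene, B2m, then kept an unadjusted p under 0.05. The exact permutation test without those mice gave p = 0.153 for B2m and p = 0.0379 for Psmb10. Leaving out vehicle replicate 6 alone brought the count of genes with an unadjusted limma p under 0.05 from 5 to 3.

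All 5 interferon ligand genes (Ifng, Ifnb1, Ifna4, Ifnk and Ifnl3) were listed at 0 in every mouse. The 4 receptor chains were all lower by mean, where 50.7% of all genes were. Without the mice with Cd79a above 0, 3 were lower, where 49.6% of all genes were. The largest differences were in Ifnar2 (-1.68, or -1.10 without those mice) and Ifngr1, the ligand-binding chain of the interferon gamma receptor. Ifngr1 was measured in all 15 mice, at 4.72 to 6.97 log2 CPM in vehicle mice (median 6.25) and 2.43 to 6.31 in dosed mice (median 4.75). Its difference of -1.41 had an unadjusted limma p of 0.0188 (SE 0.58, adjusted p = 0.982) and an exact permutation p of 0.0141, which became 0.06 without the mice with Cd79a above 0, at -1.18. Ifngr1 was picked by that unadjusted limma p, so its exact permutation p is no separate support. The kinases Jak1, Jak2 and Tyk2 differed by -0.35, 0.22 and 0.36, and by 0.07, 0.07 and 1.59 without those mice.

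Among the 8 transcription factors above 0, 7 were lower, beside 50.7% of all genes. Without the mice with Cd79a above 0, 3 were lower, beside 49.6%. Irf1, a known activator of GBP and IRG genes, was among the 7 (-0.29) and changed sign without those mice (0.28). The inhibitors were divided, with 4 of 6 lower and 2 higher. Past 2-fold were 2 lower, Ptpn6 (-1.80) and Usp18 (-1.31), and 1 higher, beside 10.5% and 9.97% of all genes. Ptpn2, a phosphatase that dampens JAK signalling, had the largest positive difference of the list, 1.44 (limma SE 1.14, adjusted p = 0.982; exact permutation p = 0.227), followed by Socs3 (0.95) and then the kinase Tyk2. Without the mice with Cd79a above 0, Ptpn2 and Socs3 differed by 1.64 and 1.37, and Ptpn6 and Usp18 by -0.32 and -0.58.

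Of the genes induced alongside the members, all 14 above 0 were lower by mean with BDE-47, beside 50.7% of all genes. With BDE-47 replicate 6 alone left out, 11 were lower. Without the mice with Cd79a above 0, 9 were lower, beside 49.6% of all genes. Psmb10, a subunit of the immunoproteasome, had medians of 5.82 and 4.59 log2 CPM and a difference of -1.36 (limma SE 0.57, unadjusted p = 0.0219, adjusted p = 0.982; exact permutation p = 0.0104), and -1.07 without those mice (exact permutation p = 0.0379). Psmb8, another such subunit, differed by -1.12 and B2m, the light chain of MHC class I, by -0.98 (exact permutation p = 0.0584 and 0.0367). Cd74, the MHC class II chaperone, differed by -1.73 with its highest values, 9.32 and 8.85 log2 CPM, in vehicle replicates 8 and 6. Without those mice the differences of Psmb8, B2m and Cd74 were -0.69, -0.71 and -0.89 (exact permutation p = 0.213, 0.153 and 0.191). Psmb10, Psmb8, B2m and Cd74 were picked by their unadjusted limma p in these same mice. Their exact permutation p values are not adjusted and are no separate support. The ubiquitin-like modifier Isg15 and, among the partners in cell defence, the autophagy gene Gabarapl2 and the caspase gene Casp4 had the largest negative differences of the tested list, -2.02, -2.03 and -1.99, with exact permutation p of 0.104, 0.0636 and 0.0822. They differed by -1.27, -1.60 and -1.58 without the mice with Cd79a above 0.

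**Figure D4:**
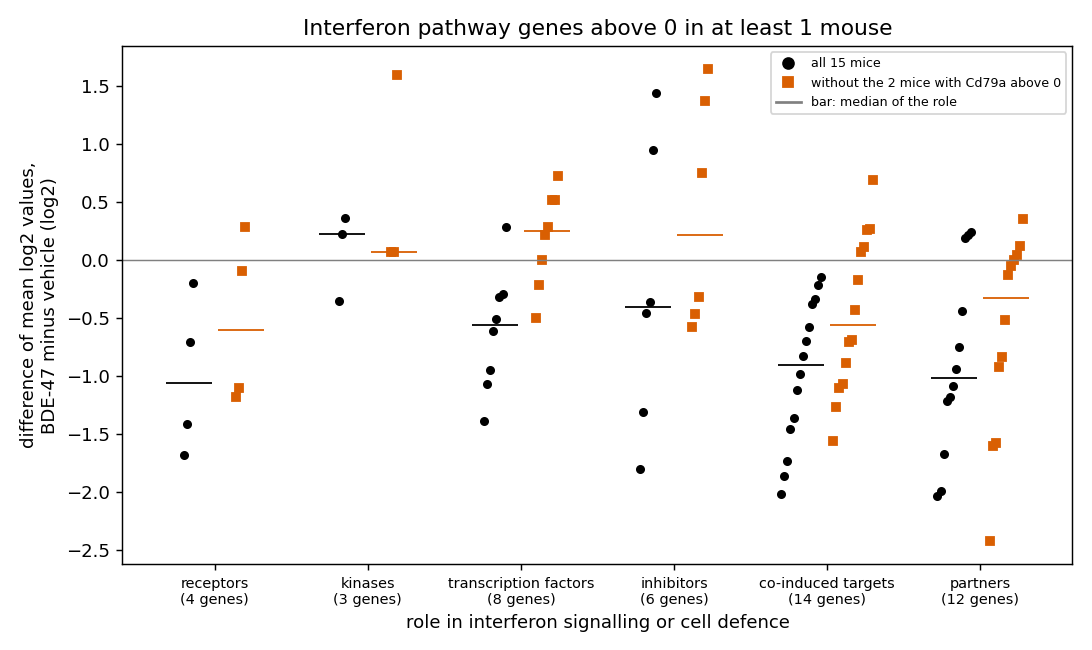
Difference of the mean log2 values, BDE-47 minus vehicle, of 47 interferon pathway genes grouped by role, with all 15 mice (circles) and without the 2 mice with Cd79a above 0 (squares), and lines at the median of each role. All 14 co-induced targets lie below 0 with all mice and 9 of them without the 2 mice. The medians of transcription factors and inhibitors lie above 0 without the 2 mice.

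The genes whose levels went most with the mean of the 10 members across mice, after the mean of each group was removed, were sought among 9505 other genes. The 6 highest Pearson correlations over 15 mice were those of H2-Aa (0.88, an MHC class II chain), Macf1 (0.86, a cytoskeletal linker), H2-Q7 (0.83, an MHC class I gene), the pseudogene Gm10240 (0.82), Sla (0.81, an adaptor of lymphocyte receptors) and Cd74 (0.80), with Spearman values of 0.80, 0.89, 0.74, 0.73, 0.68 and 0.72. The median over all genes was 0.04. Over the 13 mice without Cd79a the values of the same 6 genes were 0.72, 0.81, 0.71, 0.66, 0.59 and 0.58. The points share libraries, and the 3 mice with the highest member sums weigh most in them.

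Marker lists of other cells moved in the same mice. The T cell list (9 genes) summed to 381 and 947 CPM in the vehicle mice with Cd79a above 0, to 0 to 35.6 CPM in the other vehicle mice and to 0 to 18.7 CPM with BDE-47. In all 7 BDE-47 mice Cd3d, Cd3e, Cd4, Cd8a, Trbc1 and Cd5 were at 0. In all 6 other vehicle mice Cd3d, Cd3g, Cd8a, Trbc1 and Cd5 were at 0 as well. Cd3e and Cd4 were above 0 among those 6 in vehicle replicate 2 alone (2.16 and 2.68 log2 CPM). The NK cell list (6 genes) summed to 143 and 352 CPM in those 2 mice, to 0 to 39.0 CPM in the other vehicle mice and to 0 to 8.76 CPM with BDE-47. In vehicle replicate 6, Ncr1, Klrb1c and Klrd1 of this list were at 0. Its sum came from Nkg7, Gzma and Prf1 (7.96, 3.84 and 6.47 log2 CPM), so it does not identify NK cells there. Macrophage markers (7 genes) summed to 1456 and 2087 CPM in the 2 mice, 124 to 781 CPM in the other 6 vehicle mice and 143 to 599 CPM with BDE-47, so the latter sets overlapped. The 5 dendritic cell markers stayed at or under 38.0 CPM in every mouse. The part of these cells in the levels of the members was not tested.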

How the data were processed

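Libraries were made by the authors with QuantSeq 3′ FWD from total RNA of mammary tissue, and, per the labels, reads were mapped with STAR 2.5.3a to GRCm38. The deposited values are log2 CPM per gene, listed at 0 under 1 CPM (log base and floor were inferred from the numbers themselves). Of 52636 entries per mouse, 110 that repeat a name were dropped, keeping the entry with the highest sum. Depth, 10.06 to 19.58 M reads, was recovered from the spacing of low CPM values. Differences are BDE-47 minus vehicle means of the deposited log2 values. A value listed at 0 enters as 0, so a difference on this scale can be smaller or larger than the log2 ratio of mean CPM. The 9511 genes that reached 1 CPM in 7 or more mice were tested with limma 3.58.1 (trend) in R 4.3.3. Benjamini-Hochberg adjustment was made over all of them. Single genes were also tested with the exact permutation test, two-sided and without adjustment for their number. No test was made for Gbp4. Mice were treated as 15 independent animals. The xenograft covariate of the study's methods is not in the labels and was not used. The limma step was tested on simulated data.

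The members and lists were chosen with earlier results of these data known. The genes named are all members and every further GBP, IRG or very large GTPase gene above 0. From the tested genes of the interferon list, the 3 largest rises and falls and those with an unadjusted p under 0.05 are named. The 6 genes most correlated with the members are named too. Ifnar2, Jak1, Jak2, Irf1, Ptpn6 and Usp18, and Pgk1, Tbp and Ckm, were named after their values were seen. Irgm2 was set beside Igtp after its values were seen. Positions and promoters are from RefSeq for GRCm38.p6, and transcript ends from GENCODE M39, used without coordinates. Alternatives were pseudocounts of 1 and 0.1 for the floor, median-of-ratios scaling, other filters, ratios of mean CPM, the replicate number as a block, and mice left out. Figures were drawn with matplotlib 3.10.9 in Python 3.11.15.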

Additional observations from a re-analysis of the deposited data

Results flagged for a closer look

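In 39 genes of the report, values of 1 mouse far from the others of its group were sought with Dixon's test, in 73 groups of 7 or 8 mice with any spread, and 9 values were found. Chance gives about 1 in 20 groups for smooth data, a rate that does not hold here: in 5 of the 9 every other mouse of the group was listed at 0, so any value above 0 stood out. In vehicle replicate 6 these were Gbp6 (5.02 log2 CPM), Gbp8 (5.20) and Tgtp1 (3.31), each with every other vehicle mouse at 0. In BDE-47 replicate 3 they were Gbp9 (1.52, next 0.37), Gm12250 (1.81, next 0) and Sla (2.89, next 0.18). Gm5431 stood out in vehicle replicate 3 (3.25) and 9930111J21Rik2 in vehicle replicate 2 (5.61, next 2.00). The value flagged at the low end was Irgm2 in BDE-47 replicate 7, listed at 0.00 where the next lowest BDE-47 mouse had 4.67. Apart from Irgm2, the genes of this group were listed at 0 in at least 8 of 15 mice.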

How the results depend on the processing

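Gbp4 (-4.16 to -1.54), Gbp2 (-2.20 to -0.52), Igtp (-2.70 to -0.87) and Irgm2 (0.41 to 2.49) kept their direction under every alternative and with any single mouse left out, and no tested relative of Gbp4 passed an adjusted limma p of 0.05 in any of them. The number of members lower with BDE-47, Gbp4 included, was 8. It was 4 without the mice with Cd79a above 0, and 5 to 10 with 1 mouse left out. Without BDE-47 replicate 6 as well as those with Cd79a it was 4 (a set chosen after seeing the data). Without those 3 mice 2 genes of the table passed (Wfdc18 and Chchd2), neither a member. At an unadjusted limma p under 0.05 there were 5 interferon genes. The count was 1 without the mice with Cd79a above 0 and 3 to 7 with 1 mouse left out. Without the 3 mice it was 1, Tyk2, which was higher, so that no lower gene was left.

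Differences near 0 changed sign. Gbp3 (-0.04) was 0.07 and 0.15 with pseudocounts of 1 and 0.1, 0.02 with size factors, 0.68 and 0.89 without the 2 and the 3 mice and 0.64 as a ratio of mean CPM, and Irgm1 (-0.02) was 0.01, 0.22, 0.01, 0.77 and 0.61 under the same settings bar the last. Gbp5 (0.02) was -0.06, -0.23 and -0.01 with pseudocounts and size factors and -0.16 as a ratio of mean CPM, Gbp7 (-0.04) was 0.05 with size factors, Gbp8 (0.08) was -1.42 as a ratio of mean CPM, and Gbp9 (-0.54) was 0.27 and 0.32 without the 2 and the 3 mice. With 1 mouse left out, the ranges were -0.65 to 0.31 for Gbp3, -0.28 to 0.38 for Gbp5, -0.47 to 0.31 for Gbp7, -0.28 to 0.73 for Gbp8 and -0.37 to 0.36 for Irgm1. The cause of these changes was not tested. 

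The labels number the mice of both groups 1 to 7, but these are different animals, and deviations of same-numbered mice correlated by -0.02 to 0.05, with 4 of 7 dosed mice nearest to their own number. With the replicate block, which drops vehicle replicate 8, the interferon genes with an unadjusted limma p under 0.05 were 3. Under the same block Gbp3 (0.29), Gbp7 (0.19), Gbp8 (-0.02) and Irgm1 (0.36) changed sign. Values listed at 0, 74 of 150 member values, limit all 10 members except Gbp7. The fewest reads above 0 were 64 to 504 in Gbp2, Gbp6, Gbp8 and Irgm1, and 13 to 31 in Gbp3, Gbp4, Gbp5, Gbp9 and Igtp. Why values were listed at 0 was not tested.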
